A study of Rattus norvegicus with 16 samples.

Results

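Iron moves through cells by a small set of proteins, and 10 of their genes were followed here in rat kidney cortex: *Tfrc*, *Tf*, *Cybrd1* and *Slc11a2* for uptake, *Fth1*, *Ftl1* and *Ncoa4* for storage, *Slc40a1* for export, and *Aco1* and *Ireb2* for sensing. Members were the genes whose name appears in the gene name column of the scanner files, which gave 17 probes of the 45598 on the array and 10 of the 34742 gene names. A probe was kept if some group had it well above background on all of its arrays. This rule kept all 10 genes, 16 of the 17 probes and 16007 genes for testing. Each gene is described by its brightest passing probe unless another probe is named.

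Transferrin carries ferric iron in blood and is taken up by the transferrin receptor, after which Slc11a2 (DMT1) moves ferrous iron into the cytosol. Ferritin, built of the heavy chain of *Fth1* and the light chain of *Ftl1*, stores it, Ncoa4 delivers ferritin to lysosomes, and ferroportin, the product of *Slc40a1*, exports iron. Aco1 (IRP1) and Ireb2 (IRP2) bind iron responsive elements in messenger RNAs when iron is scarce, which blocks translation of the ferritins and ferroportin and protects *Tfrc* RNA from decay. In the kidney the proximal tubule reclaims filtered iron and transferrin. Translation is not seen on an RNA array.

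The study treated male Jcl:SD rats, BRCA1+/- or wild-type, with Fe-NTA, ferric nitrilotriacetate, an iron chelate that injures the proximal tubule by oxidation. Injections into the peritoneum began at 4 weeks of age, with 2 doses of 5 mg iron per kg and 3 of 7 mg in the first week and, in the longer course, 5 doses of 10 mg in each later week. Tissue was collected 48 h later, and total RNA labelled with Cy3 was hybridised to 1 single-colour Agilent array per sample. The 16 arrays were BRCA1+/- untreated (2), BRCA1+/- after 1 week of Fe-NTA (3), BRCA1+/- after 3 weeks (3), wild-type untreated (2), wild-type after 1 week (3) and wild-type after 3 weeks (3). BRCA1 is a DNA repair gene, and the allele carried by the BRCA1+/- animals is not described in the sources used here. The labels give no age, vehicle or sampling time for the untreated rats. Age and treatment cannot be told apart in comparisons with them, and time, age and dose cannot be told apart between 3 weeks and 1 week. The courses began with 18 BRCA1+/- and 17 wild-type animals, and the labels do not tie an array to an animal, so p-values measure the spread between these samples, which may be technical.

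Values are scaled log2 signals: each array was shifted so that 0 is the brightness of the probe at its 75th percentile. That percentile ranged from 20.1 to 78.5 intensity units and 32.7% to 60.4% of probes were well above background. Within groups, arrays correlated at 0.964 or more, except in the wild-type 1-week group, where the lowest pair was at 0.905. *Brca1* itself did not check the labels: its brighter probe lay at -3.44 to -0.04 in untreated BRCA1+/- cortex and at -3.31 to -2.70 in untreated wild-type cortex, and its ranges also overlapped after 1 and 3 weeks. The proximal tubule, the main tissue of the cortex, was visible in every group: at least 11 of its 12 markers were well above background on each of the 16 arrays. *Slc34a1*, its phosphate transporter, averaged 8.41, 6.43 and 6.99 in BRCA1+/- cortex without treatment, at 1 week and at 3 weeks, and 8.66, 3.94 and 7.40 in wild-type cortex.

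*Cybrd1* was higher after Fe-NTA at both times in both genotypes. It encodes a membrane ferric reductase (duodenal cytochrome b), which turns ferric into ferrous iron for uptake, and its probe lies at chr3:53405880-53405939 on the plus strand (rn4, the build in the file headers). In BRCA1+/- cortex the scaled signal was -1.28 and -1.20 without treatment, 1.28, 0.75 and 1.06 after 1 week, and 0.67, 0.65 and 1.31 after 3 weeks. In wild-type cortex it was -2.34 and -1.31 without treatment, 1.34, 0.71 and 0.77 after 1 week, and 0.89, 0.65 and 0.52 after 3 weeks. Every treated array was above every untreated one, while the 4 treated groups overlapped one another. Such separation is common with 2 or 3 arrays a group: 44.9% of all genes did not overlap with their controls at 1 week in either genotype, and 61% and 57.1% at 3 weeks in BRCA1+/- and wild-type cortex.

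In the limma fit over all genes *Cybrd1* rose in each treatment comparison. In BRCA1+/- cortex the log2 fold change was 2.27 ± 0.33 (SE) at 1 week, adjusted p = 0.000963, and 2.12 ± 0.33 at 3 weeks, adjusted p = 0.00082. In wild-type cortex neither untreated array was well above background, so the rise was at least 4.51-fold at 1 week (adjusted p = 4.0e-05) and at least 3.79-fold at 3 weeks (adjusted p = 0.0003). The rise was called without any 1 array of the groups compared. A second probe, 2245 bases farther along the transcript, rose at both times in wild-type cortex (at least 1.28-fold and at least 1.41-fold, adjusted p over all probes 0.0366 and 0.0415) and was not called in BRCA1+/- cortex, with log2 fold changes of 1.24 ± 0.54 and 1.52 ± 0.54. Normexp background correction adds an offset of 50 intensity units, which shrinks the fold changes of dim probes. With it the 3-week rise of the first probe in wild-type cortex was not called (0.57, adjusted p = 0.0887). These are the last 30 bases of the 2 probes, shown because they read different stretches of 1 transcript.
Cybrd1 A_43_P14622: caaggaggttttcctgagagcgattgtgtt
Cybrd1 A_64_P084088: tggcgtgtagcgaaattccttttaggtaac

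Macrophage and injured tubule markers moved in the same direction as *Cybrd1*. So did the summed collecting duct and cycling cell markers, which lay above their controls on every treated array. The summed scaled signal of 12 macrophage markers (linear, in units of the array's 75th percentile) was 38.3 to 43.8 in untreated BRCA1+/- cortex, 87.2 to 167 at 1 week and 134 to 316 at 3 weeks. In wild-type cortex it was 32.8 to 49.7, 99.4 to 201 and 147 to 225. *Cd68* and *Csf1r*, its defining genes, were well above background on every treated array. The sum of 7 injured tubule markers was 19.0 to 25.4 and 17.2 to 20.3 in untreated BRCA1+/- and wild-type cortex, against 233 or more on every treated array. In whole tissue, a change in the number of cells of a type and a change in RNA per cell cannot be told apart, and the part of these cells in the result was not tested.

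**Figure D1:**
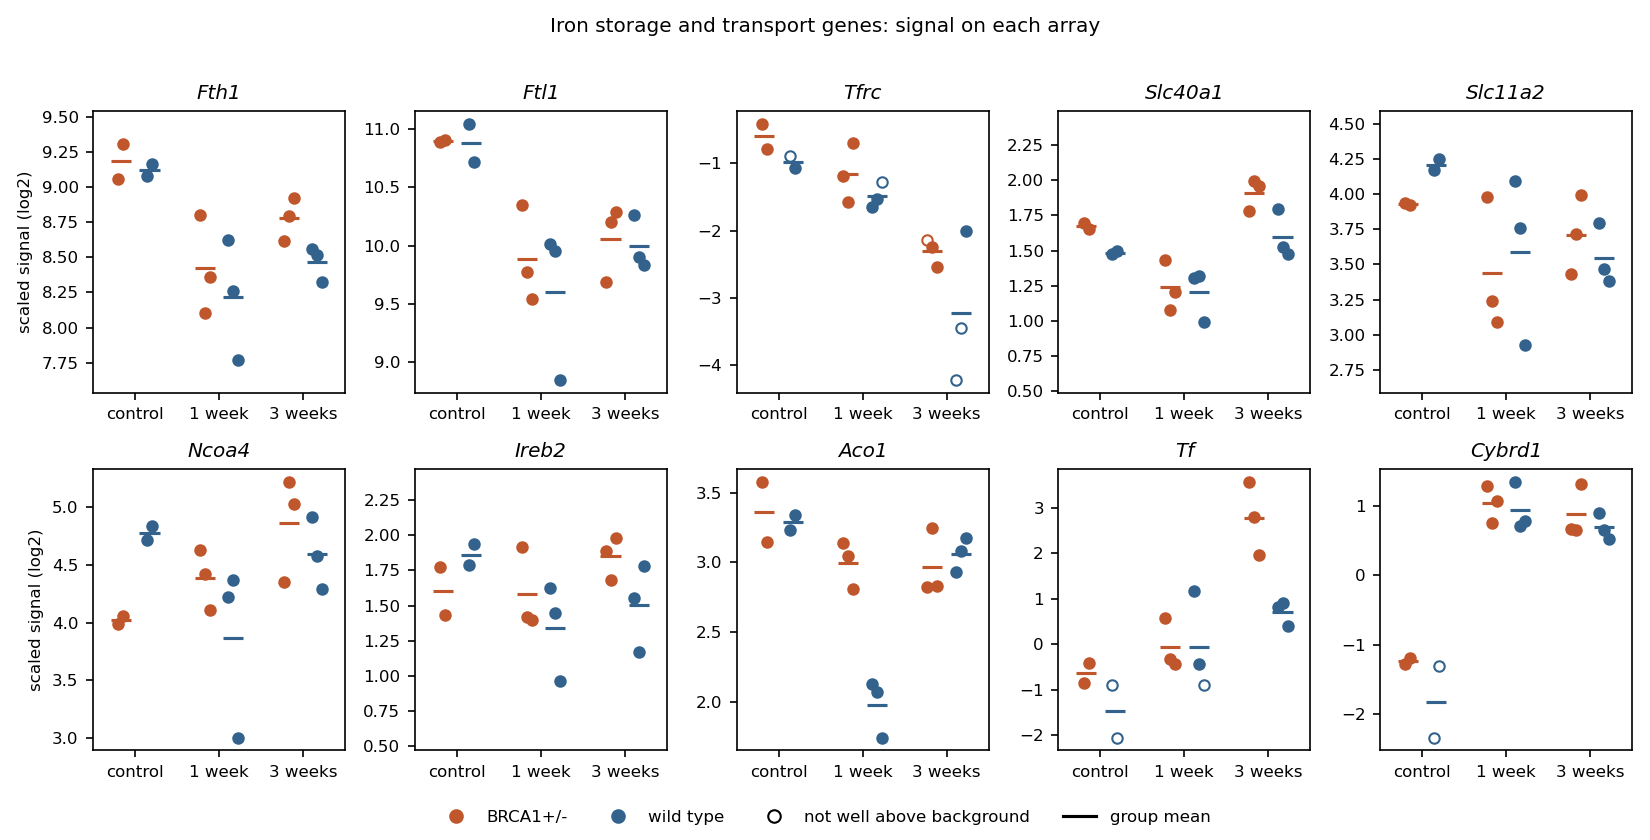
Scaled log2 signal of the 10 genes on each of the 16 arrays, by time on the horizontal axis, with BRCA1+/- left of wild-type; bars are group means and open points were not well above background. *Cybrd1* is higher on every treated array, *Tfrc* is lowest at 3 weeks, and *Tf* is highest in BRCA1+/- cortex at 3 weeks.

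*Tfrc* fell at 3 weeks in both genotypes. Its probe (chr11:69976628-69976687, minus strand, rn4) is dim. BRCA1+/- cortex had -0.41 and -0.79 without treatment, -1.19, -1.58 and -0.70 after 1 week, and -2.14, -2.25 and -2.54 after 3 weeks. Wild-type cortex had -0.89 and -1.06 without treatment, -1.64, -1.53 and -1.28 after 1 week, and -4.22, -3.45 and -2.0 after 3 weeks. All 6 arrays at 3 weeks were below all untreated arrays of both genotypes.

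At 3 weeks the log2 fold change against untreated cortex was -1.71 ± 0.46 in BRCA1+/- cortex (adjusted p = 0.0234) and -2.25 ± 0.46 in wild-type cortex (adjusted p = 0.00526). At 1 week it was -0.56 and -0.51, adjusted p = 0.524 and 0.46. Between 3 weeks and 1 week *Tfrc* was not called in BRCA1+/- cortex (-1.15, adjusted p = 0.308) and fell in wild-type cortex (-1.74 ± 0.41, adjusted p = 0.0181). The sizes rest in part on dim values: the probe was well above background on 2 of 3 BRCA1+/- arrays at 3 weeks, on 1 of 3 wild-type arrays at 3 weeks and on 1 of 2 untreated wild-type arrays. With values below the detection limit raised to it, the wild-type change at 3 weeks was -1.04 (adjusted p = 0.026), and that against 1 week was -0.61 (adjusted p = 0.165). In this setting no BRCA1+/- value of *Tfrc* changed. Its BRCA1+/- change against 1 week stayed at -1.15, not called in the main fit and called here (adjusted p = 0.049). The BRCA1+/- call was lost without untreated replicate 1 (adjusted p = 0.158), untreated replicate 2 (0.0842) or 3-week replicate 3 (0.0762), and without the filter on dim probes (0.0791). The wild-type call against 1 week was lost without 1-week replicate 3 (0.0557), 3-week replicate 1 (0.0753) or 3-week replicate 2 (0.0806).

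Markers of erythroid cells, which carry much transferrin receptor while they mature, were also lower after Fe-NTA: of 10 tested, 8 fell at 1 week and 6 at 3 weeks in BRCA1+/- cortex, and 7 and 6 in wild-type cortex. The summed scaled signal of 11 markers was 2178 to 2986, 132 to 159 and 424 to 676 in BRCA1+/- cortex without treatment, at 1 week and at 3 weeks. In wild-type cortex it was 364 to 2370, 68.3 to 250 and 136 to 353. This sum was lower at 1 week than at 3 weeks in BRCA1+/- cortex, and its ranges at these times overlapped in wild-type cortex. Of its defining genes, *Hba-a1* was well above background on every array and *Hbb* on 2 of 3 BRCA1+/- and 1 of 3 wild-type arrays at 1 week, and the part of blood cells in the *Tfrc* result was not tested.

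*Tf*, the gene of transferrin, rose at 3 weeks, and its highest values were those of BRCA1+/- cortex. The probe lies at chr8:108219377-108219436 on the minus strand (rn4). BRCA1+/- cortex had -0.85 and -0.41 without treatment, 0.58, -0.32 and -0.42 after 1 week, and 3.57, 2.81 and 1.96 after 3 weeks. Wild-type cortex had -0.90 and -2.05 without treatment, 1.18, -0.44 and -0.90 after 1 week, and 0.83, 0.91 and 0.40 after 3 weeks. At 3 weeks the BRCA1+/- arrays were above all others, and the 1-week groups of the genotypes overlapped. Of all genes 20.6% did not overlap between the genotypes at 3 weeks.

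In BRCA1+/- cortex at 3 weeks the log2 fold change was 3.41 ± 0.57 against untreated cortex (adjusted p = 0.0014) and 2.83 ± 0.51 against 1 week (adjusted p = 0.0339). The first call was kept without any 1 array of the 2 groups, whereas the second was lost without 1-week replicate 2 or 3 or 3-week replicate 1 or 2 (adjusted p 0.0713 to 0.158). In wild-type cortex at 3 weeks the rise was at least 3.86-fold (adjusted p = 0.0204), since neither untreated array was well above background. It was lost without untreated replicate 2 (adjusted p = 0.225), 3-week replicate 1 (0.0536) or 3-week replicate 2 (0.0625), with normexp correction (0.54 on the log2 scale, adjusted p = 0.287) and without the filter on dim probes (0.068). At 1 week neither genotype was called (adjusted p = 0.606 in BRCA1+/- and 0.0808 in wild-type cortex).

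*Tf* is best known as a liver gene, so hepatocyte markers were read beside it. *Alb* and *Apoa1* were well above background on none of the 16 arrays. The sum of 7 hepatocyte markers was 16.7 to 21.6 and 5.70 to 9.10 in BRCA1+/- cortex without treatment and at 3 weeks, and 18.7 to 23.6 and 7.25 to 12.7 in wild-type cortex. Only 1 or 2 of the 7 were well above background on an untreated array and 2 or 3 on an array at 3 weeks, so the sum rests on few genes. Of the 2 markers tested, *Fga*, a fibrinogen chain, rose and *Apoc3*, an apolipoprotein, fell at 3 weeks in both genotypes. The cells that gave the *Tf* signal were not tested.

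The 250 bases before the start of *Tfrc* and of *Tf* in the RefSeq promoter table (GRCr8) are shown because these genes of receptor and ligand moved in opposite directions at 3 weeks. They lie at chr11:81690319-81690568 and chr8:112695377-112695626, both on the minus strand, and capitals mark the motif found.
Tfrc: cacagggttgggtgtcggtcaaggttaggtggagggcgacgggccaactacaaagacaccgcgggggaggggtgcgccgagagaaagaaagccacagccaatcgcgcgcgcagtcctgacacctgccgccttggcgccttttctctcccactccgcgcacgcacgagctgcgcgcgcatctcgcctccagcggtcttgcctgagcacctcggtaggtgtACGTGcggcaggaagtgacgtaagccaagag
Tf: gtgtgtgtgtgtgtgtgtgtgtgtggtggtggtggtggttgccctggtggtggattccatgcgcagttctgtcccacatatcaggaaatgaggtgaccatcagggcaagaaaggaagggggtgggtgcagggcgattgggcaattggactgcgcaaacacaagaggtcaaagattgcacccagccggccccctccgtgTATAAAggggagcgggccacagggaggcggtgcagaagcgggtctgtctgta
Both strands were searched for ACGTG (the core of the hypoxia response element), TGACNNNGC and TGAGNNNGC (forms of the antioxidant response element), GGGCGG (the GC box) and TATAAA. *Tfrc* holds 1 ACGTG, its first base at -31 from the start, and *Tf* 1 TATAAA at -52. Of 33469 promoters 16.6% hold ACGTG, 10.1% TGACNNNGC, 14.2% TGAGNNNGC, 30.5% GGGCGG and 12.9% TATAAA in the same window. Of the 8 members matched by symbol, ACGTG was in *Tfrc* and *Ncoa4*, and GGGCGG in *Cybrd1*, *Aco1*, *Slc11a2*, *Ireb2*, *Slc40a1* and *Ncoa4*. *Ncoa4* also holds TGACNNNGC and TATAAA. A match is a description of these letters and not a site.

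*Slc11a2*, whose product DMT1 carries ferrous iron out of endosomes, was not called in any comparison. It had 3.94 and 3.92 in untreated BRCA1+/- cortex, 3.98, 3.24 and 3.09 at 1 week, and 3.43, 3.71 and 3.99 at 3 weeks. Among wild-type arrays they were 4.17 and 4.25, then 4.09, 3.76 and 2.93, then 3.79, 3.47 and 3.39. The log2 fold changes against untreated cortex ran from -0.66 to -0.22 with SE 0.34, and the interval of the lowest, wild-type at 3 weeks, was -1.39 to 0.07. Its 2 probes have the same 60 bases and are 1 measurement made with 2 sets of spots.

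The ferritin genes *Fth1* and *Ftl1* fell at 1 week in wild-type cortex. *Fth1* had 9.06 and 9.31 in untreated BRCA1+/- cortex, 8.80, 8.11 and 8.36 at 1 week, and 8.61, 8.79 and 8.92 at 3 weeks. Wild-type signals were 9.08 and 9.16 without treatment, 8.62, 8.26 and 7.77 at 1 week, and 8.56, 8.51 and 8.32 at 3 weeks. No treated array reached the untreated arrays of its genotype.

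*Ftl1* had 10.89 and 10.90 in untreated BRCA1+/- cortex, 10.35, 9.78 and 9.54 at 1 week, and 9.69, 10.21 and 10.29 at 3 weeks. The same groups in wild-type cortex gave 11.04 and 10.72, then 10.01, 9.95 and 8.85, then 10.27, 9.90 and 9.84. For both genes the highest group means were the 2 untreated ones and the lowest was wild-type at 1 week, with neighbouring treated groups overlapping apart from *Fth1* at 3 weeks, where BRCA1+/- lay above wild-type. Of all genes 20.6% did not overlap between the genotypes at 3 weeks. The *Fth1* difference was not called with limma (0.31 ± 0.25, adjusted p = 0.814).

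In wild-type cortex at 1 week the log2 fold change was -0.90 ± 0.28 for *Fth1* (adjusted p = 0.0261) and -1.27 ± 0.35 for *Ftl1* (adjusted p = 0.0148). In BRCA1+/- cortex at 1 week it was -0.76 ± 0.28 and -1.01 ± 0.35, adjusted p = 0.114 and 0.0984, so neither was called. At 3 weeks *Fth1* stood at -0.41 in BRCA1+/- and -0.66 in wild-type cortex, and *Ftl1* at -0.83 and -0.88, with adjusted p between 0.11 and 0.319. The difference between genotypes in the 1-week change was 0.14 ± 0.40 for *Fth1* and 0.27 ± 0.50 for *Ftl1* (adjusted p = 0.968 and 0.948). The wild-type calls were lost without untreated replicate 1 (*Fth1* 0.1, *Ftl1* 0.118) or replicate 2 (0.14 and 0.0512). *Ftl1* was at -0.46 (adjusted p = 0.501) after quantile normalization, and both were lost with normexp correction, without the filter on dim probes and when only the groups compared were fitted. That last setting instead called both in wild-type cortex at 3 weeks (-0.66 and -0.88, adjusted p = 0.0489 and 0.0381 in limma).

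The 2 *Fth1* probes overlap at chr1:212432641-212432701 and chr1:212432648-212432709 (plus strand, rn4) and changed alike, -0.85 and -0.90 in wild-type cortex at 1 week. They are shown because they differ in sequence, by 1 substitution and 3 gap columns over 54 aligned columns. Capitals mark the substituted base within 30 bases of each.
Fth1 A_44_P1144205: tttctataagttgcaccaAaacatctgctt
Fth1 A_64_P075640: tttctataagttgcaccaGaacatctgctt
The 2 *Ftl1* probes share 53 bases, and capitals mark AATAAA, the signal for cleavage and polyadenylation.
Ftl1 A_44_P1158929: tcttggaccaagtaaaAATAAAgctttttg
Ftl1 A_64_P004348: ggaccaagtaaaAATAAAgctttttgaaac
The first *Fth1* probe lists 2 further RefSeq accessions that the reference table does not hold, and the *Ftl1* probes list 2 and 3. Ferritin genes have many near-identical copies in rodents, so their signals are uncertain to that extent.

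**Figure D2:**
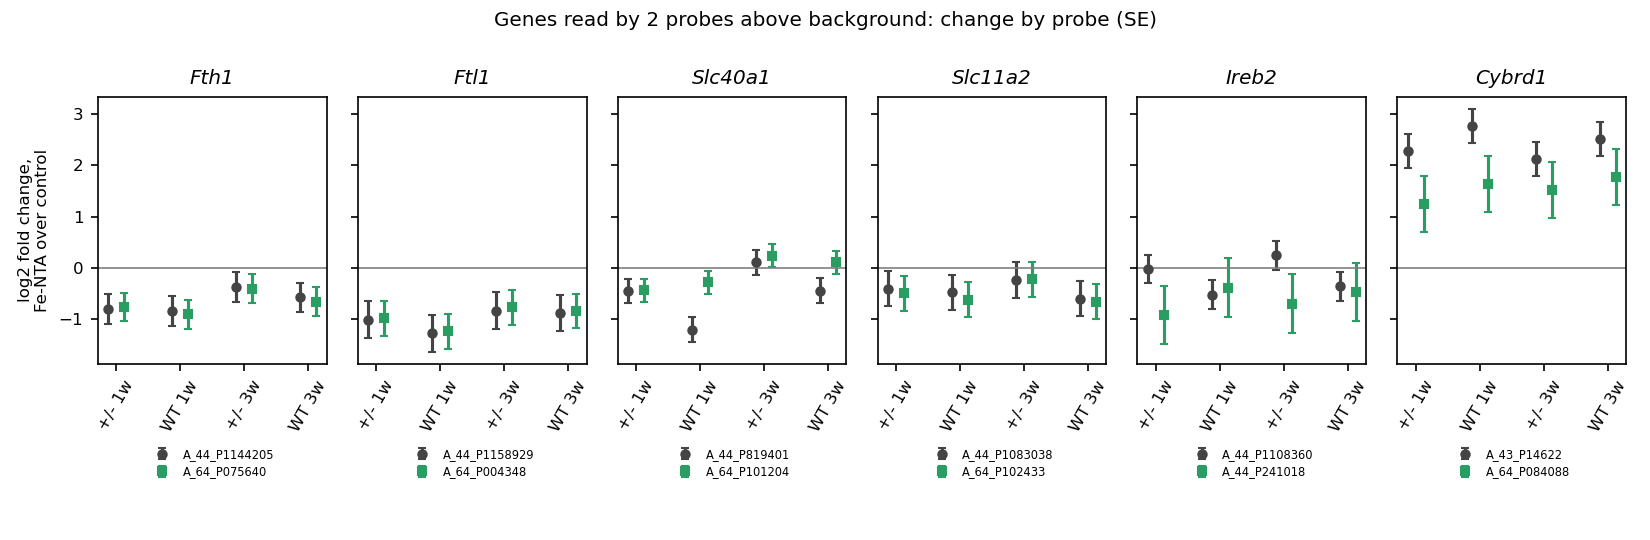
Log2 fold change of Fe-NTA over untreated cortex (SE) for each probe of the 6 genes with 2 passing probes, with BRCA1+/- (+/-) left of wild-type (WT) at 1 week (1w) and 3 weeks (3w). The probes of *Fth1*, *Ftl1* and *Slc11a2* lie together, while those of *Slc40a1* part in wild-type cortex at 1 week (-1.21 and -0.28).

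*Ncoa4*, the receptor that takes ferritin into autophagosomes, was not called. BRCA1+/- cortex had 3.99 and 4.06 without treatment, 4.63, 4.42 and 4.11 at 1 week, and 4.35, 5.22 and 5.03 at 3 weeks. Wild-type cortex had 4.72 and 4.84, then 4.22, 4.37 and 3.00, then 4.92, 4.58 and 4.29. Treated BRCA1+/- arrays lay above their controls and wild-type arrays at 1 week below theirs, a separation that 44.9% to 61% of all genes showed in these comparisons.

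The log2 fold change of *Ncoa4* was 0.37 ± 0.38 at 1 week and 0.85 ± 0.38 at 3 weeks in BRCA1+/- cortex (adjusted p = 0.621 and 0.135), and -0.91 ± 0.38 and -0.18 ± 0.38 in wild-type cortex (0.0898 and 0.791). The difference between genotypes in the 1-week change was 1.28 ± 0.54 with an unadjusted p of 0.0308 and an adjusted p of 0.586. Its untreated means were 4.02 ± 0.05 and 4.78 ± 0.08 (SD, n = 2 each) in BRCA1+/- and wild-type cortex, which enters that difference. The wild-type change at 1 week depended on single arrays: it was -1.16 and called without 1-week replicate 2 (adjusted p = 0.0418), and -0.48 without replicate 3, the lowest array.

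For *Slc40a1*, the gene of ferroportin, the answer depended on the probe. The brighter one (chr9:44978571-44978630, minus strand, rn4) had 1.70 and 1.66 in untreated BRCA1+/- cortex, 1.43, 1.08 and 1.21 at 1 week, and 1.78, 1.99 and 1.96 at 3 weeks. On wild-type arrays it had 1.47 and 1.5, then 1.31, 1.32 and 0.99, then 1.79, 1.52 and 1.48. Both genotypes were lowest at 1 week, and no comparison was called: the 1-week changes were -0.44 ± 0.22 and -0.28 ± 0.22, adjusted p = 0.263 and 0.394.

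The other probe (chr9:44977923-44977982) lies 588 bases away toward the 3′ end. It had -0.12 and -0.49 in untreated BRCA1+/- cortex, -0.76, -0.50 and -1.01 at 1 week, and -0.17, -0.08 and -0.34 at 3 weeks. The wild-type values were 0.04 and 0.13, then -0.94, -1.39 and -1.04, then -0.36, -0.33 and -0.39. It fell in wild-type cortex at 1 week by 1.21 ± 0.24 on the log2 scale (adjusted p over all probes 0.00183) and was not called in the other 3 treatment comparisons. With the mean of both probes *Slc40a1* fell in wild-type cortex at 1 week (-0.74, adjusted p = 0.00915). Between 3 weeks and 1 week that mean rose in wild-type cortex (0.58, adjusted p = 0.0489). Windows of the 2 are shown because only the first holds AATAAA, marked in capitals.
Slc40a1 A_64_P101204: ctacagaattccAATAAAtgcctgcacttt
Slc40a1 A_44_P819401: gtgtggttgtagaaactagaagctaatggg

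*Aco1*, cytosolic aconitase when it holds an iron-sulfur cluster and IRP1 when it does not, fell at 1 week in wild-type cortex. Its probe lies at chr5:57591506-57591565 on the plus strand (rn4). BRCA1+/- cortex had 3.58 and 3.14 without treatment, 3.14, 3.05 and 2.81 at 1 week, and 2.83, 3.25 and 2.83 at 3 weeks. Wild-type cortex had 3.23 and 3.34, then 2.13, 2.07 and 1.75, then 2.93, 3.08 and 3.18. The 3 wild-type arrays at 1 week were below all 13 others, and the other treated groups overlapped. Of all genes 12.3% did not overlap between the genotypes at 1 week.

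The wild-type log2 fold change was -1.30 ± 0.24 at 1 week (adjusted p = 0.00121), and 1.08 ± 0.22 between 3 weeks and 1 week (adjusted p = 0.00763). Both calls were kept without any 1 array of the groups compared, but normexp correction lost the first (-0.67, adjusted p = 0.155), testing without the dim-probe filter lost the second (0.0661), and fitting only the groups compared lost both (0.0647 and 0.0924). The BRCA1+/- change was -0.36 ± 0.24 and -0.39 ± 0.24 at 1 and 3 weeks (adjusted p = 0.417 and 0.272). At 1 week BRCA1+/- cortex exceeded wild-type cortex by 1.02 ± 0.22 with an adjusted p of 0.0514, just outside the threshold. It was called after quantile normalization, with the mean of all probes and with the detection limit in place of dim values (adjusted p 0.0457, 0.0418 and 0.0476). *Aco1* has a single probe, well above background on every array, so the mean of probes and the detection limit left its own values unchanged. Leaving out any 1 array of the groups compared did not lead to a call (limma adjusted p 0.05255 to 0.261). The test of the genotype difference in the 1-week change gave 0.94 ± 0.35 and an adjusted p of 0.515.

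Proximal tubule markers were lowest in the same 3 arrays. Their summed scaled signal was 1482 to 2213, 414 to 823 and 572 to 1139 in BRCA1+/- cortex without treatment, at 1 week and at 3 weeks. Wild-type arrays showed 1895 to 2368, 145 to 334 and 865 to 1142. Of the 12 markers 11 fell in wild-type cortex at 1 week and 3 in BRCA1+/- cortex. The gene most like *Aco1* over the 16 arrays was *Hnf4a*, itself 1 of these markers (Pearson r = 0.956). The part of the tubule's state in the falls of *Aco1*, *Fth1* and *Ftl1* was not tested.

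*Ireb2*, the gene of IRP2, was not called in any comparison. Its brightest probe (chr8:58479548-58479607, plus strand, rn4) had 1.77 and 1.43 in untreated BRCA1+/- cortex, 1.92, 1.42 and 1.40 at 1 week, and 1.89, 1.68 and 1.98 at 3 weeks. For wild-type cortex the values were 1.79 and 1.94, then 1.62, 1.44 and 0.96, then 1.55, 1.17 and 1.78. The 4 changes against untreated cortex lay between -0.52 and 0.25 with SE 0.28. A second probe was dim and not called, and the other was well above background on no array.

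**Figure D3:**
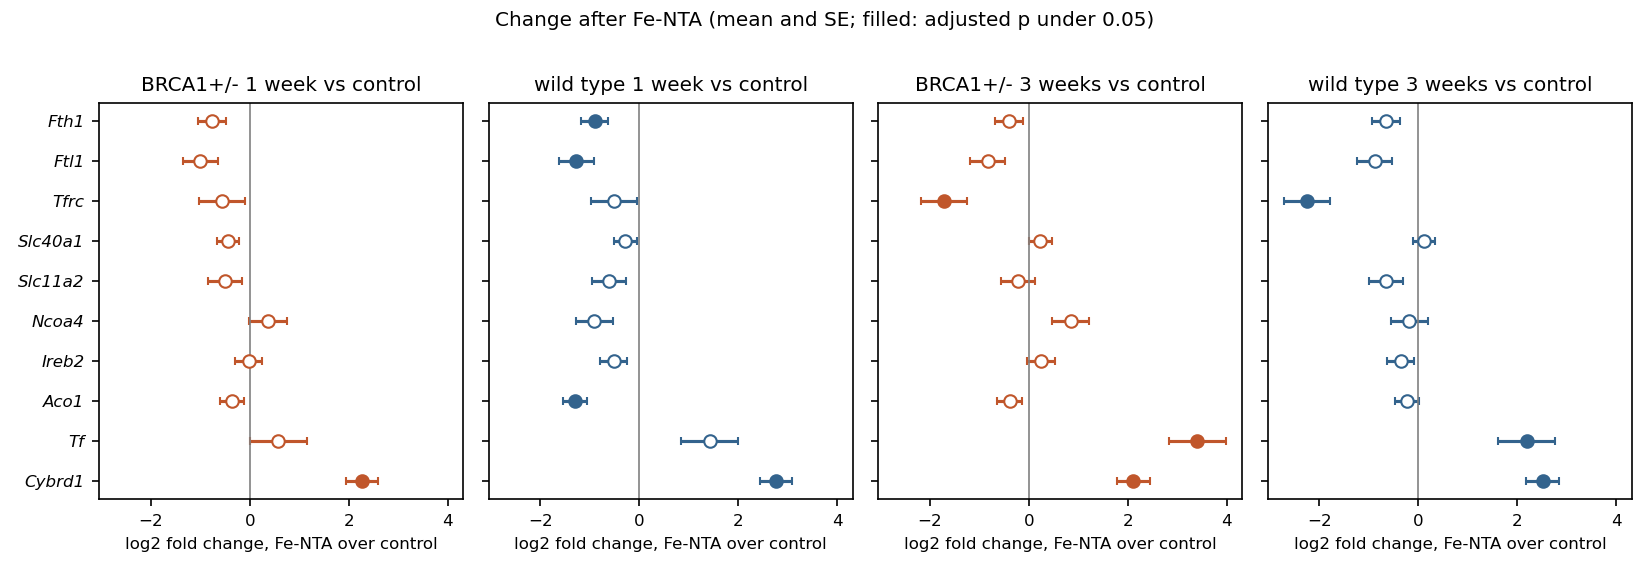
Log2 fold change of Fe-NTA over untreated cortex for the 10 genes (points, with SE), in BRCA1+/- left of wild-type cortex at 1 week and then at 3 weeks; filled points were called at an adjusted p under 0.05. *Cybrd1* is filled in all 4 panels, *Tfrc* and *Tf* in both at 3 weeks, and *Fth1*, *Ftl1* and *Aco1* in wild-type cortex at 1 week.

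Counted together, 1 of 10 genes rose and 0 fell in BRCA1+/- cortex at 1 week, where 7.48% of all genes were called, 4.28% up and 3.2% down. In wild-type cortex at 1 week 1 rose and 3 fell, where 27.1% of all genes were called, 12.8% up and 14.3% down. At 3 weeks 2 rose and 1 fell in BRCA1+/- cortex, where 15.9% were called, 9.35% up and 6.52% down. In wild-type cortex at 3 weeks 2 rose and 1 fell, where 14.2% were called, 8.72% up and 5.52% down. Between 3 weeks and 1 week *Tf* rose in BRCA1+/- cortex, where 0.306% of all genes were called, 0.187% up and 0.119% down, and *Aco1* rose and *Tfrc* fell in wild-type cortex, where 8.32% were called, 5.54% up and 2.78% down. These counts over 10 genes are a description, and no result about the group is read from them. The median log2 fold change of the 10 at 1 week was -0.40 in BRCA1+/- and -0.57 in wild-type cortex, beside -0.03 and -0.02 over all genes, and at 3 weeks 0.01 and -0.29 beside 0.01 and -0.02. The 1-week and 3-week comparisons of a genotype share its 2 untreated arrays.

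The arrays lay on 2 slides that each held all 6 groups, and slide as a block changed no call of a member. Within slide 1 and slide 2 each called change kept its direction, from 1 or 2 arrays a group. The values differed most for *Tfrc* in wild-type cortex between 3 weeks and 1 week (-2.37 and -0.47) and for *Tf* in BRCA1+/- cortex between these times (1.38 and 3.56). *Cybrd1* had 2.56 and 2.11 at 1 week and 2.59 and 1.86 at 3 weeks in BRCA1+/- cortex, and 2.37 and 3.05, then 2.08 and 2.86, in wild-type cortex. *Aco1* had -1.40 and -1.16 in wild-type cortex at 1 week.

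No member was called between the genotypes with limma. That held for untreated, 1-week and 3-week cortex (background 0%, 0.562% and 0%, the second being 0.494% up and 0.0687% down), for the average over the 3 (0%) and for the differences between genotypes in the 1-week and 3-week change (0% and 0%). At an unadjusted p under 0.05 there were 0, 1, 2, 2, 2 and 0 members, and 738, 2021, 931, 1210, 1218 and 759 of all genes. The 2 at 3 weeks were *Tf*, 2.78 ± 0.81 in BRCA1+/- and 0.71 ± 0.28 in wild-type cortex (SD, n = 3 each; difference 2.07 ± 0.51, adjusted p = 0.71), and *Tfrc* (0.91 ± 0.41, adjusted p = 0.809). The genotype difference in the 3-week change of *Tf* was 1.22 ± 0.81 with an interval of -0.52 to 2.95.

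Another 59 iron genes were listed with the members, and 42 could be tested. Of these, 3 rose and 2 fell in BRCA1+/- cortex at 1 week, and 3 rose and 5 fell at 3 weeks. In wild-type cortex 4 rose and 9 fell, and 4 rose and 5 fell. Over all genes 7.48% and 27.1% were called at 1 week and 15.9% and 14.2% at 3 weeks in BRCA1+/- and wild-type cortex, so 13 of 42 in wild-type cortex at 1 week is near the background. The median log2 fold change of the list was -0.14 and -0.48 at 1 week in BRCA1+/- and wild-type cortex, beside -0.03 and -0.02 over all genes, and -0.11 and -0.02 at 3 weeks, beside 0.01 and -0.02. The list was chosen with earlier results of these data known, so its counts are a description.

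*Lcn2*, a siderophore-binding protein that is also 1 of the injured tubule markers, rose most in the list: by 5.73 ± 0.57 and 6.36 ± 0.57 on the log2 scale in BRCA1+/- cortex at 1 and 3 weeks, and at least 63.1-fold and 35.7-fold in wild-type cortex. *Slc39a8*, the zinc, manganese and iron importer ZIP8, fell in all 4 comparisons. BRCA1+/- cortex had 1.33 and 1.72 without treatment, 0.17, -0.47 and -1.46 at 1 week, and -1.19, -0.96 and -0.84 at 3 weeks. Among wild-type arrays they were 1.58 and 1.59, then -1.09, -1.09 and -2.26, then -1.80, -1.22 and -1.76. No treated array reached an untreated one. Its log2 fold changes were -2.11 ± 0.43 and -2.52 ± 0.43 in BRCA1+/- and -3.07 ± 0.43 and -3.18 ± 0.43 in wild-type cortex, with adjusted p of 0.00864 or less.

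Heme oxygenase 1, *Hmox1*, which frees iron from heme, rose at 1 week by at least 2.78-fold in BRCA1+/- and 2.30-fold in wild-type cortex. It was lower at 3 weeks than at 1 week in wild-type cortex (-1.85 ± 0.45, adjusted p = 0.0192). Ceruloplasmin, *Cp*, the ferroxidase that loads iron onto transferrin, rose at 3 weeks by 2.75 ± 0.47 in BRCA1+/- and 2.05 ± 0.47 in wild-type cortex (adjusted p = 0.00174 and 0.0103), the time at which *Tf* rose. *Cd163*, the haemoglobin receptor of macrophages, rose in BRCA1+/- cortex, by at least 2.18-fold at 3 weeks, and is also 1 of the macrophage markers. *Cubn*, an endocytic receptor for filtered transferrin, rose in wild-type cortex at 3 weeks (0.85 ± 0.25, adjusted p = 0.0339). It is also 1 of the 12 proximal tubule markers, of which 1 rose and 3 fell in that comparison.

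*Glrx5*, a mitochondrial glutaredoxin of cluster assembly, fell by 1.13 ± 0.27 in BRCA1+/- cortex at 1 week and, in wild-type cortex, by 1.56 ± 0.27 at 1 week and 1.08 ± 0.27 at 3 weeks. In BRCA1+/- cortex at 3 weeks it was lower as well, at 2.99, 2.75 and 2.89 against 4.29 and 3.54 without treatment. *Nfs1*, the cysteine desulfurase, fell by 1.34 ± 0.30 in BRCA1+/- cortex at 3 weeks, and by 1.71 ± 0.30 and 1.11 ± 0.30 in wild-type cortex at 1 and 3 weeks. *Pcbp3*, an RNA-binding protein, rose in wild-type cortex at 1 week (1.53 ± 0.36), and *Exoc6*, an exocyst subunit, fell there at both times (-1.18 ± 0.25 and -1.09 ± 0.25).

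**Figure D4:**
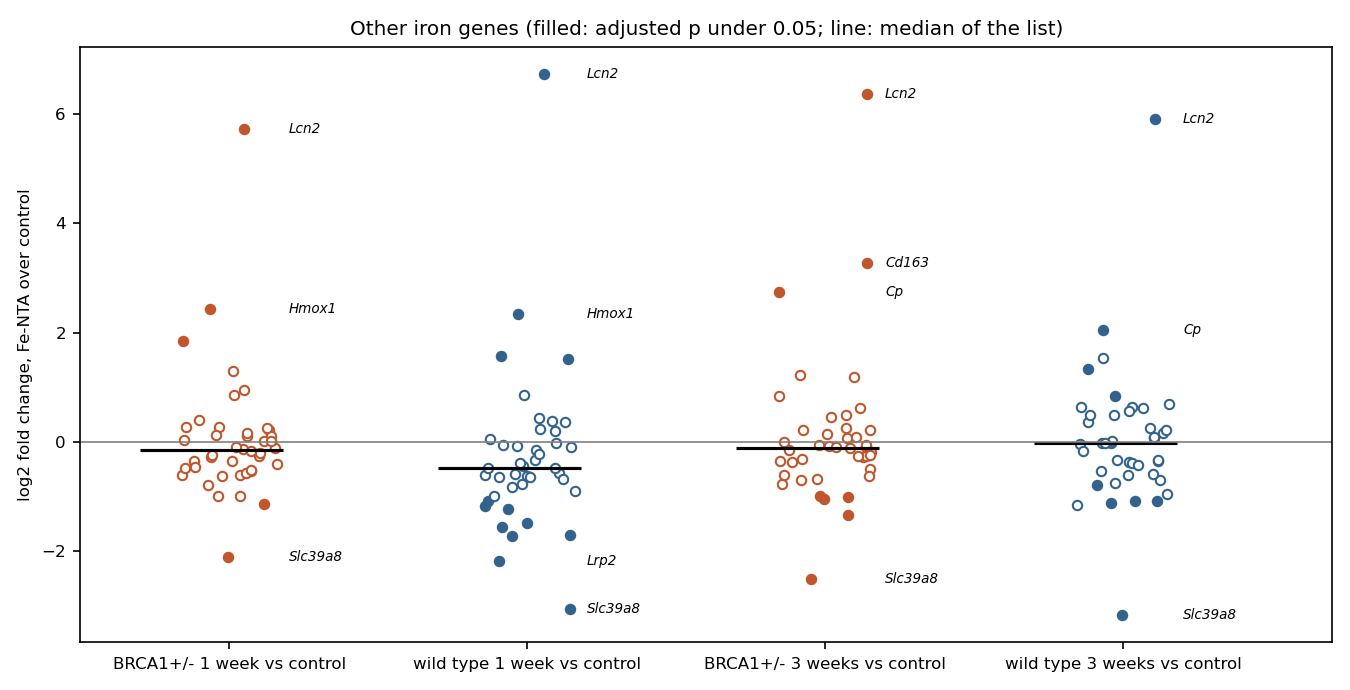
Log2 fold change of Fe-NTA over untreated cortex for the 42 other iron genes tested, with BRCA1+/- left of wild-type at 1 week and then at 3 weeks; filled points were called and the line is the median of the list. *Lcn2* stands highest and *Slc39a8* lowest in each comparison, and the median of the list is furthest from 0 in wild-type cortex at 1 week (-0.48).

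Transcripts known to carry an iron responsive element in the 5′ part include *Fth1*, *Ftl1* and *Slc40a1*, described above, and *Alas2*, the gene of the erythroid enzyme that starts heme synthesis and 1 of the erythroid markers, named here after its values were seen. *Alas2* had 1.52 and 1.09 in untreated BRCA1+/- cortex and -2.13, -2.48 and -3.44 at 1 week, the last 2 not well above background, and it fell there (adjusted p = 0.00311). In wild-type cortex at 1 week, where 1 of 2 untreated arrays was well above background, it fell by at least 2.69-fold (adjusted p = 0.00309). Of the 4 listed with the element in the 3′ part (*Tfrc*, *Slc11a2*, *Cdc14a* and *Cdc42bpa*) *Tfrc* fell at 3 weeks in both genotypes and *Cdc14a* rose in wild-type cortex at 1 week (at least 1.47-fold, adjusted p = 0.0227).

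Genes with patterns among the closest to each called member, by Pearson's r over the 16 arrays among 11453 genes, are given as a description, since all points share arrays, scaling and treatment. They were *Clec2d* (0.974) and *Loxl2* (0.971) for *Cybrd1*, *Pitpnm3* (0.927) for *Tf*, and *Rsl24d1* (0.828) and *Ube2v2* (0.81) for *Tfrc*. For *Fth1* they were *Hsd11b1* (0.951) and *Dph3* (0.949), for *Ftl1* *Chuk* (0.971) and *Thnsl2* (0.965), and for *Aco1* *Hnf4a* and *Bmp4* (0.956 each). *Tfrc* had the loosest match of the 6, on a probe near background.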

How the data were processed

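Per the file headers, the deposited scanner files hold spot intensity values from Agilent Feature Extraction 10.7, background-subtracted, with substitutes for dim spots and unscaled between arrays. The value table deposited by the authors is on a log2 scale. Its values lay within 0.01 of the scaled scanner values, after removing each column's median shift, for 98.9% or more of probes, and served as an alternative.

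Control spots (4259 of 62976) and outlier spots were left out, spots of a probe averaged, and log2 signals scaled to the array's 75th percentile. A probe counted as well above background where over a share of 0.5 of its spots did. Names were updated through RefSeq for the 21229 probes that matched. The test was limma 3.58.1, run in R 4.3.3 (16007 genes, 1 mean per group, 10 residual degrees of freedom, Benjamini-Hochberg over all genes, two-sided, called at an adjusted p under 0.05) in 12 comparisons. The fit was tested on simulated data in which few genes changed, between wild-type 1 week and control. It recovered 8.96% of 67 genes changed by 1 on the log2 scale, 83.6% of 67 changed by 2 and 95.5% of 66 changed by 3. In the real data 27.1% of all genes were called in that comparison, so these shares do not carry over to it directly. A gene that is not called may still have a change of about 1. "At least" folds set the bright group against the detection limit of each dim array. The number of arrays limits the precision.

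Named genes are the members, the 3 called iron genes with the smallest p in each direction and treatment comparison, 2 defining genes per marker list and 2 of like pattern per called member; others are named to spell out small counts. Some items that this rule names are not reported here. Members and lists were chosen with earlier results of these data known. Replicate numbers did not pair samples (deviations of same-numbered arrays correlated at -0.007 on average, different numbers at 0.004).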

Additional observations from a re-analysis of the deposited data

How the results depend on the processing

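No member's called change turned its direction under any alternative. Of the members' recomputed changes 2076 kept their side of the threshold, 63 lost the call and 11 gained it. With normexp correction (offset 50) 1 member was called in each of 3 wild-type comparisons, 1 week, 3 weeks and 3 weeks against 1 week. Without the filter on dim probes 2 were called in wild-type cortex at 1 week and 0 between 3 weeks and 1 week in either genotype, and 2 were called in each genotype at 3 weeks. The calls lost there were *Fth1* (adjusted p = 0.129) and *Ftl1* (0.0646) at 1 week, *Tf* (0.068) in wild-type and *Tfrc* (0.0791) in BRCA1+/- cortex at 3 weeks, and *Tfrc* (0.0725), *Aco1* (0.0661) and *Tf* (0.105) between the times. With dim values at the detection limit 2 were called between 3 weeks and 1 week in BRCA1+/- and 1 in wild-type cortex, and quantile normalization left 0 between these times in BRCA1+/- cortex. Within slide 1 alone the counts were 0 and 1 for BRCA1+/- and wild-type at 1 week, 0 and 1 at 3 weeks, and 0 and 1 between the times; within slide 2 they were 0 and 1, 1 and 0, and 0 and 0, from fewer arrays. Fitting only the groups compared gave 1 in wild-type cortex at 1 week, 5 at 3 weeks and 0 between the times in either genotype. The calls gained at 3 weeks were *Fth1* and *Ftl1*. Leaving out 1 array gave 1 to 1 and 2 to 5 for BRCA1+/- and wild-type at 1 week, 2 to 3 and 2 to 3 at 3 weeks, 0 to 1 and 1 to 2 between the times, and 0 to 0 for the genotype average and differences. The counts over all genes moved too. In wild-type cortex at 1 week the main fit called 4341 of 16007 genes, and normexp correction 1694. There it was 2656 of 34680 without the filter and 1754 with only the groups compared. At 3 weeks these settings called 2280, 824, 970 and 3704, and between the times 1331, 667, 471 and 457. In BRCA1+/- cortex between the times the main fit called 49, quantile normalization 20 and the detection limit 99. The cause of these shifts was not tested. The replicate block left 4 called in wild-type cortex at 1 week, with *Fth1* lost (adjusted p = 0.0537) and *Tf* gained (1.72, adjusted p = 0.00888), and changed no other call. Without the filter the median of all genes was -0.34 in wild-type cortex at 1 and 3 weeks, against -0.02 with it. Signal over background limits *Tfrc*, *Tf* and *Cybrd1*.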
